A study of Mus musculus with 2 samples.

Results

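The DNAJ family, also called HSP40, was taken from the deposited expression table of mouse neural stem cells as every gene whose symbol begins with Dnaja, Dnajb or Dnajc followed by a digit. The pattern found 41 of 15953 genes, 4 in class A, 11 in class B and 26 in class C. There was 1 library labelled Hikeshi cKO, a conditional knockout, and 1 labelled wild type. Both came from mouse neural stem cells in suspension culture, and total RNA was sequenced. No source used here gives the Cre driver, the deleted exons, the age of the mice or any pooling of animals. With 1 library per genotype there is no replicate, so the genotypes could not be tested against each other, and every value below describes these 2 libraries.

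DNAJ proteins are co-chaperones of HSP70. Their J domain docks on HSP70 and stimulates it to hydrolyse ATP, which closes it on a client protein, and many DNAJ proteins bind the client first and hand it over. Class A proteins carry the J domain, a glycine and phenylalanine rich stretch and a zinc finger, class B proteins lack the zinc finger, and class C proteins share little beyond the J domain and serve many specialised sites. Hikeshi carries HSP70 into the nucleus, most of all under heat stress, which makes the partners of HSP70 of interest in cells labelled as lacking it.

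The libraries held 18912683 reads (cKO) and 18839079 reads (wild type). Hikeshi itself had 640 reads in the library labelled Hikeshi cKO, against 718 in the library labelled wild type, a ratio of 0.888 (95% counting interval 0.797 to 0.989). Reads counted over a whole gene need not show a deletion of some exons, so this does not check the genotype, for which the labels were followed. The 4 Y-linked genes listed had 305 to 1265 reads in the library labelled Hikeshi cKO, against 0 or 1 in the library labelled wild type. All 9 kept oligodendrocyte markers and all 6 astrocyte markers were lower by at least 1.5-fold in the library labelled Hikeshi cKO, with summed levels of 129 (cKO) against 1367 (wild type) CPM (reads per 1000000 reads counted) and of 1085 (cKO) against 2562 CPM (wild type). All 10 neural stem cell markers were kept, and 1 was higher by at least 1.5-fold, Vim (ratio 1.69), while 4 were lower, Hes5 (0.390), Prom1 (0.520), Sox9 (0.602) and Fabp7 (0.661). The list summed to 7441 CPM (cKO) and 6127 CPM (wild type), with a median difference of -0.29, and Sox2 had a ratio of 0.993 and Nes of 1.37. The 3 microglia markers listed had 4 reads together (cKO) against 7 (wild type), and Cx3cr1 and Csf1r among them had 0 in the library labelled Hikeshi cKO. The libraries therefore differed in these respects beside the label. Fewer cells of a type and less RNA per cell cannot be told apart in such bulk samples. Any part of these differences in the DNAJ values below was not tested.

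The promoters shown here are those of the pair of genes that stood highest, Dnaja1 and Dnajb1, and of Dnajb6, the only member whose windows held the longest form searched of the heat shock element. That element is the binding site of heat shock factor, built of inverted GAA units. Sequences are from RefSeq on build GRCm38.p6, run 5′ to 3′ on the strand of the gene from 250 bases before the start site to 50 bases after it, and capitals mark matches to the motif letters. The Dnaja1 window shown is chr4:40722218-40722517, the Dnajb1 window chr8:83607925-83608224 and the Dnajb6 window chr5:29735648-29735947, all on the plus strand. Each of these genes also had a window at another start site.
Dnaja1: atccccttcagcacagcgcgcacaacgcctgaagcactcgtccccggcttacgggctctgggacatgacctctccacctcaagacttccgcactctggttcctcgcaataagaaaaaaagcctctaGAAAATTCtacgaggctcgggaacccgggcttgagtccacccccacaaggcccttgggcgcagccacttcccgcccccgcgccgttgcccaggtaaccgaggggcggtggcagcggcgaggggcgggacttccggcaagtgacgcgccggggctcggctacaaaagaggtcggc
Dnajb1: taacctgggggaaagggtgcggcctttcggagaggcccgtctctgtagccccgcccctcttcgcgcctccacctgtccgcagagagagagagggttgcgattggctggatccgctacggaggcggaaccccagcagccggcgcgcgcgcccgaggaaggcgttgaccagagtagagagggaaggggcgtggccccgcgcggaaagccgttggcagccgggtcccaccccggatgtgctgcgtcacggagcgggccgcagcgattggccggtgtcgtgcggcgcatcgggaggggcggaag
Dnajb6: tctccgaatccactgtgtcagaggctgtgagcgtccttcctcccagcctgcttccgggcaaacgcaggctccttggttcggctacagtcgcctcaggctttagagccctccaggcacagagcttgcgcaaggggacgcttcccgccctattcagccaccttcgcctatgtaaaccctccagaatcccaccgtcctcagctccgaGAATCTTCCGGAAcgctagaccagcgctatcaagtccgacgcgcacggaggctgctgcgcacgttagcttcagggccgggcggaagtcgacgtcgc

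The motifs searched on both strands were the 2-unit forms GAANNTTC and TTCNNGAA and the 3-unit forms in which a further inverted unit follows either of them after any 2 bases. Each 3-unit form therefore contains both 2-unit forms. In the windows shown, Dnaja1 held 1 match that starts 124 bases before the start site, and Dnajb6 held a 3-unit match 46 bases before its own. Of the 3 Dnaja1 windows, only the one shown held a match. The other Dnajb6 window held the same match, 127 bases before its start site. The Dnajb1 windows held no match, which says only that these letters are not in them. A 2-unit form was found for 6 of the 34 members with a promoter in the table (17.6%), against 14.2% of 12643 genes, and a 3-unit form for 1 of 34 (2.94%), against 0.546%. The 6 members were Dnaja1, Dnaja4, Dnajb4, Dnajb6, Dnajc10 and Dnajc27. Their log2 differences between the libraries had a median of 0.12 and a range of -0.23 to 0.59, and the 27 kept members without a match had a median of -0.01 and a range of -1.33 to 0.57. The range of the first set thus lay almost within that of the second. Dnajc2, Dnajc5, Dnajc11, Dnajc12, Dnajc18, Dnajc22 and Dnajc30 were not in the promoter table.

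Most members differed little between the libraries. The largest differences were those of Dnaja1 and Dnajb1, higher in the library labelled Hikeshi cKO, and of Dnajc6, Dnajc4, Dnajb3 and Dnajc28, lower there. The lower ones had few reads. Of the 41 members, 39 reached 1 CPM in at least 1 library and were kept. Dnajb13, a protein of sperm flagella, had 3 reads (cKO) against 1 (wild type), and Dnajc22 had 1 read in each library. Differences are given as log2 of CPM plus 1 in the library labelled Hikeshi cKO minus the same in the library labelled wild type. At a threshold of 1.5-fold on that scale, 1 kept member was higher (2.56%) and 3 were lower (7.69%), against 4.22% and 10.2% of all 12618 kept genes. At a smaller difference of 0.32 in log2, 4 were higher (10.3%) and 6 lower (15.4%), against 13% and 20.1% of all kept genes. These 4 shares were near the background and none exceeded it. The median over kept members was 0.03, against -0.02 over all kept genes, and 21 of 39 members lay above 0 (53.8%), against 47.8% of all kept genes. The 95% counting interval of the ratio, which covers counting error in these libraries only, lay above 1 for 12 members and below 1 for 9. Those are 30.8% and 23.1% of the kept members, against 28.1% and 31.2% of all kept genes. Whether an interval excludes 1 depends on the reads of the gene, and these shares were not matched for reads, here or below.

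**Figure D1:**
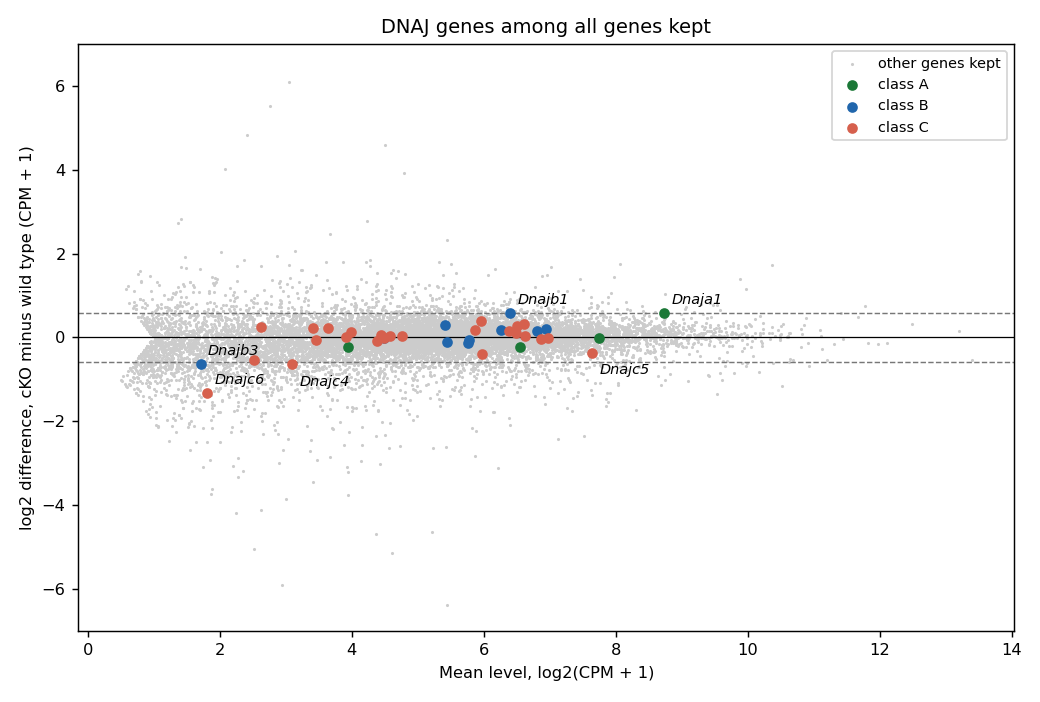
Log2 difference between the library labelled Hikeshi cKO and the library labelled wild type (CPM + 1) against mean level, log2(CPM + 1), for the 12618 genes kept (grey) and the 39 DNAJ members kept (coloured by class). Dashed lines mark 1.5-fold, and Dnaja1, at 0.59, is the most abundant member and lies at the upper line.

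Summed over all 41 members, the family took 52049 reads in the library labelled Hikeshi cKO, against 47550 in the library labelled wild type, or 0.275% (cKO) and 0.252% of all reads (wild type). The ratio of the sums was 1.09 (1.08 to 1.104). Of the difference of 228.1 CPM, 175.3 CPM (76.8%) came from Dnaja1 and 33.57 CPM (14.7%) from Dnajb1. This is a net sum over members of either sign, in which Dnajc5 counted for -50.85 CPM (-22.3%). Without both genes, a choice made after their values were seen, the ratio was 1.01 (0.995 to 1.02). By class, the ratio of sums was 1.23 in class A (1.20 to 1.26), 1.12 in class B (1.09 to 1.15) and 1.003 in class C (0.985 to 1.02). The sum and the median parted in class A, where 1 of 4 members lay above 0 and the median difference was -0.12. The medians were 0.06 in class B, where 5 of 10 kept members lay above 0, and 0.03 in class C, where 15 of 25 did.

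Levels of different genes were compared per length, by deposited TPM. Class C made up 51.2% of the family's summed TPM in the library labelled Hikeshi cKO, against 54.4% in the library labelled wild type. Class B made up 25.04% (cKO) and 24.3% (wild type), and class A, with its 4 genes, 23.7% (cKO) and 21.2% (wild type). In both libraries 12 members stood above 50 TPM and 4 stayed under 5 TPM. Dnaja1 was the most abundant member in both, and the levels ran down over a wide range to Dnajb13 and Dnajc22 at or under 0.38 TPM.

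**Figure D2:**
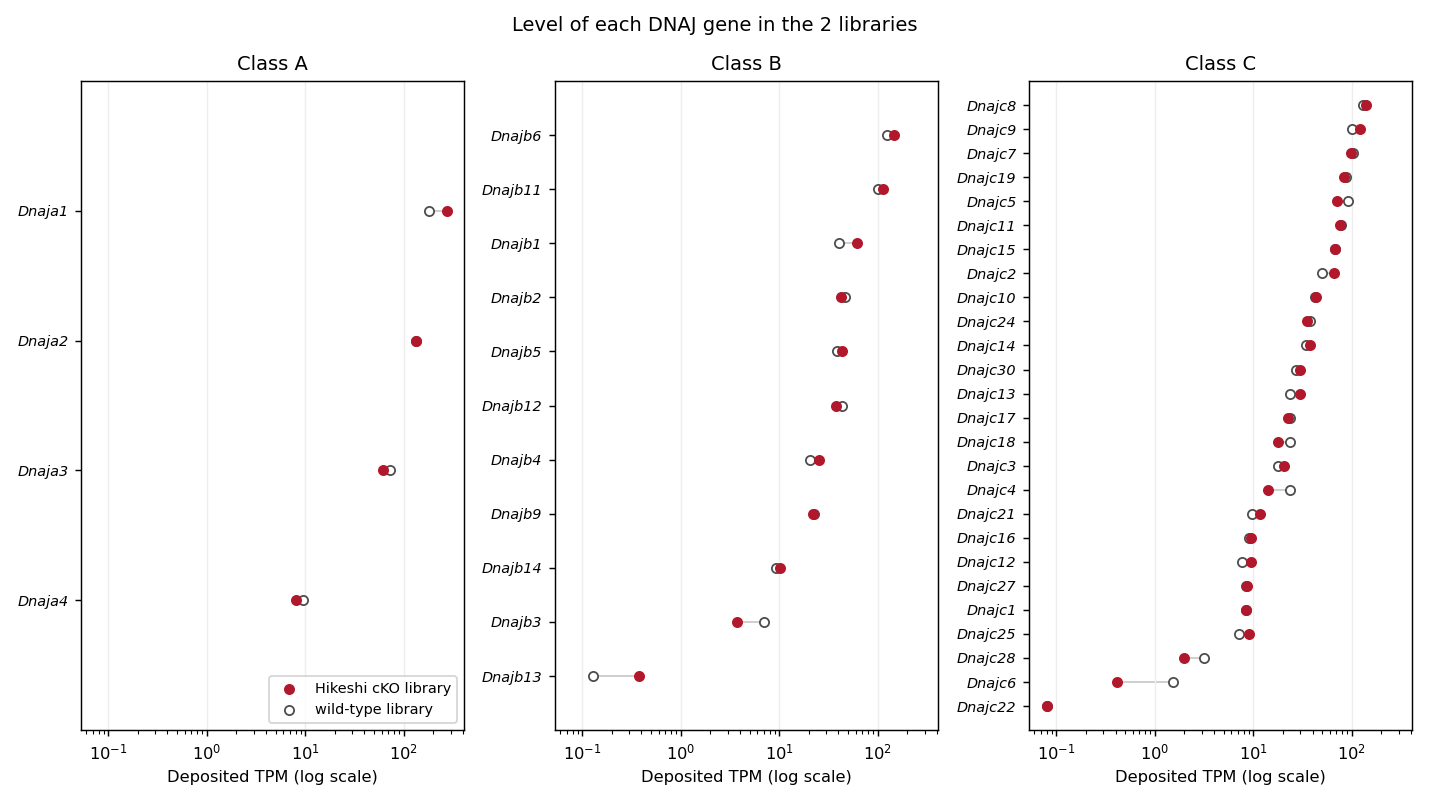
Deposited TPM (log axis) of each of the 41 members by class, with filled points for the library labelled Hikeshi cKO and open points for the library labelled wild type. Dnaja1 is highest at 275.34 (cKO) and 182.23 TPM (wild type), and for most members the points nearly coincide.

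Class A held the largest single difference in reads. Dnaja1 (Entrez 15502, chromosome 4, 40722468 to 40734965, plus strand) encodes a general cytosolic partner of HSP70. It had 9866 reads in the library labelled Hikeshi cKO, against 6526 in the library labelled wild type (522 CPM in cKO, 346 CPM in wild type). The ratio was 1.51 (1.46 to 1.55), and 4.15% of all kept genes had a larger difference upward. That value sits at the threshold. Genes in the tenth of lowest GC content had a median difference of 0.12 and those in the tenth of highest GC content -0.09, and with that trend removed the ratio of Dnaja1 was 1.38.

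The other class A genes were level or lower. Dnaja2, the other abundant cytosolic class A protein, had 4046 (cKO) against 4051 reads (wild type), a ratio of 0.995 (0.952 to 1.04). Dnaja3, a mitochondrial protein, had 1619 reads in the library labelled Hikeshi cKO against 1887 in the library labelled wild type, a ratio of 0.855 (0.799 to 0.914). Dnaja4 had 251 (cKO) against 297 reads (wild type), a ratio of 0.842 (0.709 to 0.999). Thus 1 of the 2 abundant cytosolic class A genes was higher in the library labelled Hikeshi cKO, and the counting interval of the other held 1.

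In class B the heat-inducible gene stood apart. Dnajb1 (Entrez 81489, chromosome 8, 83608175 to 83612653, plus strand) is the classical stress-induced HSP40, which works with HSP70 to refold and disaggregate proteins. It had 1924 reads in the library labelled Hikeshi cKO, against 1284 in the library labelled wild type (102 CPM in cKO, 68.2 CPM in wild type), and was 1.49-fold higher (1.39 to 1.60). Dnajb1 thus fell just short of the threshold that Dnaja1 just passed, with log2 differences of 0.57 and 0.59.

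The close relatives of Dnajb1 were higher by less. Dnajb4 had 872 (cKO) against 710 reads (wild type), a ratio of 1.22 (1.11 to 1.35), and Dnajb5 had 1522 (cKO) against 1344 (wild type), a ratio of 1.13 (1.05 to 1.21). Dnajb6, which holds back aggregation of polyglutamine proteins and was the most abundant class B gene, had 2473 reads in the library labelled Hikeshi cKO against 2137 in the library labelled wild type, a ratio of 1.15 (1.09 to 1.22). Dnajb2, a form that binds ubiquitin and is enriched in neurons, had 993 (cKO) against 1036 reads (wild type), a ratio of 0.955 (0.874 to 1.04). Of the 8 cytosolic and nuclear class A and B genes listed, 5 therefore had counting intervals above 1 and 1 below, against 28.1% and 31.2% of all kept genes, with a median difference of 0.19. Their summed ratio was 1.26 (1.23 to 1.28), from 1160 CPM (cKO) against 923 CPM (wild type). Dnaja1 and Dnajb1 together held 208.8 CPM of that net difference, so the summed ratio was mostly theirs. The shares of intervals among all kept genes were not matched for reads, so no excess is read from them.

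**Figure D3:**
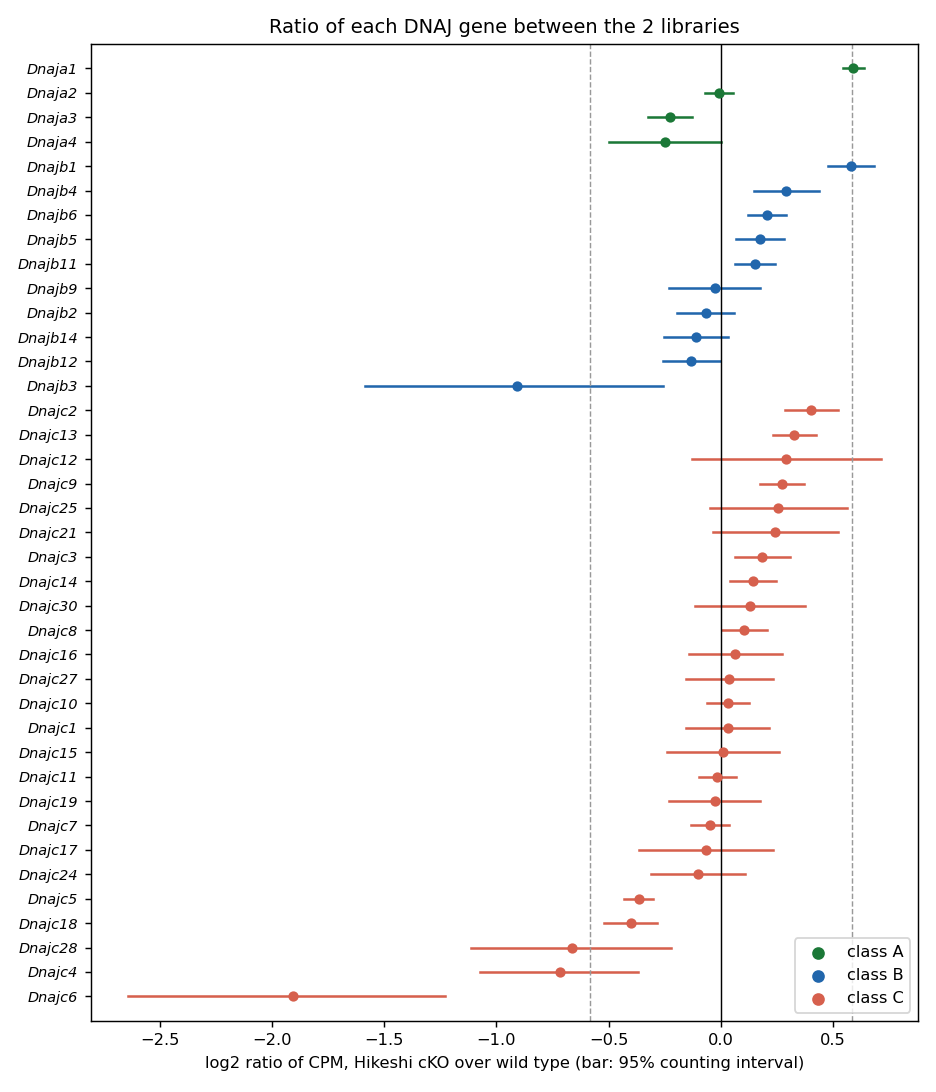
Log2 ratio of CPM, library labelled Hikeshi cKO over library labelled wild type, for each kept member by class, with 95% counting intervals as bars. Dashed lines mark 1.5-fold without the added 1 CPM. Dnaja1 and Dnajb1 lie at the upper line, and Dnajc6, Dnajb3, Dnajc4 and Dnajc28 lie beyond the lower one with wide intervals.

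Heat shock genes outside the family were mostly higher in the library labelled Hikeshi cKO as well. Of 16 such genes, which include the HSP90 genes, Hspa8 and the mitochondrial chaperonin genes Hspd1 and Hspe1 (ratios 1.58 and 1.67), 11 were at least 1.5-fold higher and 0 lower, against 4.22% and 10.2% of all kept genes, and their median difference was 0.64. The sum of the inducible HSP70 genes Hspa1a and Hspa1b, near-identical neighbours that can share reads, was 4102 reads in the library labelled Hikeshi cKO against 184 in the library labelled wild type. Hspa8, the constitutive HSP70 and main partner of Dnaja1, had 73074 (cKO) against 51739 reads (wild type), a ratio of 1.41 (1.39 to 1.42). The ratios of Dnaja1 and Dnajb1 thus stood close to that of Hspa8 and far below the 22.2 (19.2 to 25.9) of Hspa1a and Hspa1b together. Most of these genes were known to be higher in these libraries when the list was drawn up. The excess over all kept genes was thus largely set by that choice, and the list is a description beside the DNAJ values.

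Nucleotide exchange factors act after the DNAJ proteins in the HSP70 cycle by releasing ADP. Of 13 listed, 2 were higher by at least 1.5-fold and 0 lower, against 4.22% and 10.2% of all kept genes, and the median difference was 0.20. Hsph1 had 7786 reads in the library labelled Hikeshi cKO against 2868 in the library labelled wild type, a ratio of 2.70 (2.59 to 2.82). Hspa4l had 2240 (cKO) against 1448 (wild type), a ratio of 1.54 (1.44 to 1.65). Of the 9 HSP70 genes listed as partners, 2 were at least 1.5-fold higher, Hspa1a and Hspa1b, against the same share of all kept genes. Lower by that much was 1, Hspa2, at a ratio of 0.642 (0.553 to 0.744), again against the same share. Hsph1, Hspa4l, Hspa1a and Hspa1b are also among the heat shock genes above, so these lists share their higher genes.

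Members of the endoplasmic reticulum, where DNAJ proteins serve the HSP70 relative BiP (Hspa5), did not share a direction. Of the 9 members listed, 0 were 1.5-fold apart, against 4.22% higher and 10.2% lower of all kept genes. Above 0 lay 5 of the 9, against 47.8% of all kept genes. The median difference of the 9 was 0.03, and the summed ratio was 0.993 (0.965 to 1.02). Dnajb11, an abundant lumenal co-chaperone of BiP, had 2203 reads in the library labelled Hikeshi cKO against 1977 in the library labelled wild type, a ratio of 1.11 (1.04 to 1.18). Dnajc3, a lumenal co-chaperone known from the stress response to unfolded proteins, had 1161 (cKO) against 1018 (wild type), a ratio of 1.14 (1.04 to 1.24). Dnajb11 and Dnajc3 were thus slightly higher. Dnajb9, which is induced by misfolded protein in this compartment, had 401 (cKO) against 407 reads (wild type), a ratio of 0.981 (0.853 to 1.13). Dnajc10, a disulfide reductase with a J domain, had 1876 (cKO) against 1828 (wild type), a ratio of 1.02 (0.958 to 1.09). Dnajb9 and Dnajc10 thus did not differ detectably at this depth.

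Other members of the same compartment lay on both sides. Dnajc1 had a ratio of 1.02 (0.899 to 1.16) and Dnajc16 of 1.05 (0.907 to 1.21), and both intervals held 1. Dnajc18 had 1020 (cKO) against 1342 reads (wild type), a ratio of 0.757 (0.697 to 0.822), the lowest of the 9. Dnajb12 had 967 (cKO) against 1055 (wild type), a ratio of 0.913 (0.836 to 0.997). Dnajb14 had 775 (cKO) against 833 reads (wild type), a ratio of 0.927 (0.839 to 1.02), but its deposited TPM ran the other way, at 10.11 in the library labelled Hikeshi cKO against 9.19 in the library labelled wild type. The length that its reads and FPKM imply was 15.3% shorter in the library labelled Hikeshi cKO, so its direction depends on the unit. Of 15 genes of the unfolded protein response of this compartment, 0 were 1.5-fold apart, against 4.22% higher and 10.2% lower of all kept genes. Their median difference was 0.00, with a range of -0.23 (Ddit3) to 0.30 (Hspa5).

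The mitochondrial members listed were near level, and among them Dnaja3 alone was lower beyond counting error. The list may be incomplete, and Dnajc4 and Dnajc28, described below, were not placed in it. Of the 5 listed, 0 were apart by 0.32 in log2, against 13% higher and 20.1% lower of all kept genes. The median difference was -0.02, as over all kept genes. The summed ratio was 0.946 (0.909 to 0.983), from 4934 reads (cKO) against 5197 (wild type). Dnaja3, with 1619 (cKO) against 1887 reads (wild type), accounted for that difference. Dnajc19, a part of the motor that pulls proteins into the matrix, had 401 (cKO) against 407 reads (wild type), a ratio of 0.981 (0.853 to 1.13). Its relative Dnajc15 had 268 (cKO) against 265 (wild type), a ratio of 1.01 (0.847 to 1.20). Dnajc11, which associates with the complex that shapes the inner membrane, had 2353 (cKO) against 2371 (wild type), a ratio of 0.989 (0.933 to 1.05), and Dnajc30 had 293 (cKO) against 267 (wild type), a ratio of 1.09 (0.923 to 1.30). Among the 5, Dnaja3 alone had an interval that excluded 1.

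Members that work on ribosomes, RNA and chromatin lay mostly above 0 in the library labelled Hikeshi cKO. Of 5, 4 lay above 0, against 47.8% of all kept genes. Counting intervals lay above 1 for 3 and below 1 for 0, against 28.1% and 31.2% of all kept genes, and the median difference was 0.22, with a summed ratio of 1.17 (1.13 to 1.22). None was 1.5-fold apart, against 4.22% higher and 10.2% lower of all kept genes. Dnajc2, a ribosome-associated co-chaperone for nascent chains, had 1330 reads in the library labelled Hikeshi cKO against 1002 in the library labelled wild type, a ratio of 1.32 (1.22 to 1.44). Dnajc9, a co-chaperone for histones H3 and H4, had 1867 (cKO) against 1540 (wild type), a ratio of 1.21 (1.13 to 1.29). Dnajc8, a spliceosome-associated protein and the most abundant class C gene, had 1745 (cKO) against 1616 (wild type), a ratio of 1.08 (1.005 to 1.15). These were the members with intervals above 1. The shares of all kept genes were not matched for reads, so no excess is read from them. Dnajc21, which serves assembly of the large ribosomal subunit, had 235 (cKO) against 198 (wild type; ratio 1.18, 0.974 to 1.44), and Dnajc17 had 185 (cKO) against 193 (wild type; ratio 0.955, 0.776 to 1.17).

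**Figure D4:**
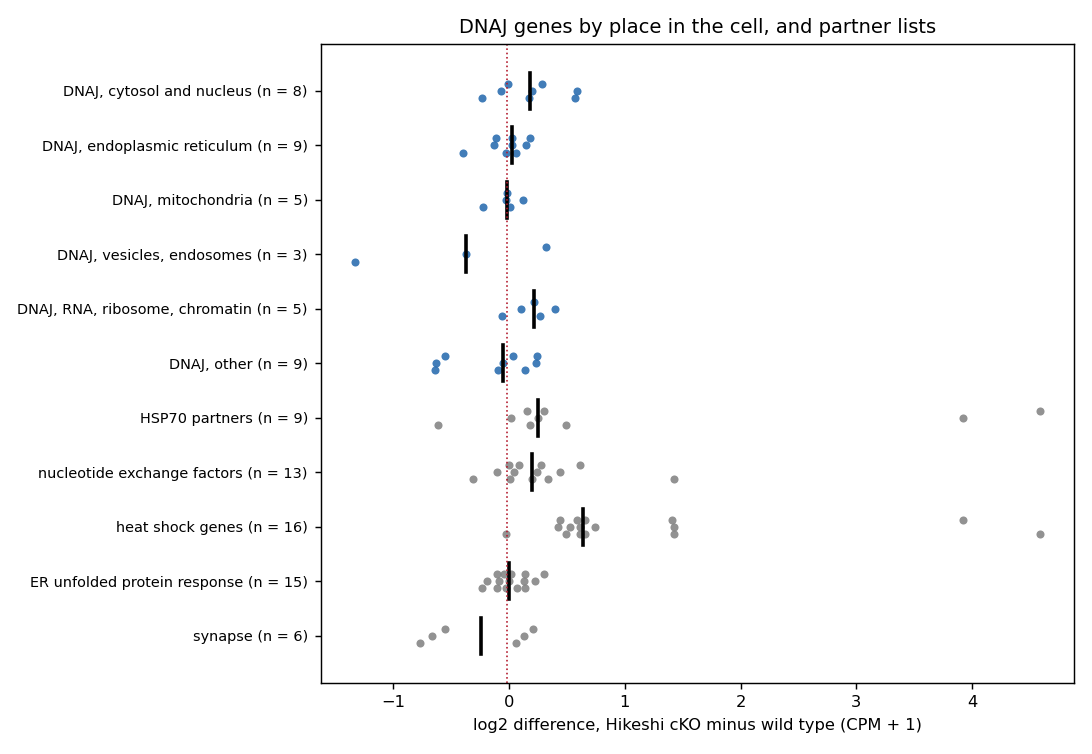
Log2 difference, library labelled Hikeshi cKO minus library labelled wild type (CPM + 1), of the kept DNAJ members by place in the cell (blue) and of the lists set beside them (grey). Each point is a gene, black bars are medians and the dotted line is the median of all kept genes at -0.02. The heat shock genes, most of them known to be higher when listed, have the highest median, 0.64. The cytosolic and nuclear DNAJ genes have a median of 0.19.

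The lowest ratios lay among members of few reads, and the lowest of all was that of Dnajc6, a gene of vesicle traffic. Dnajc6 (Entrez 72685, chromosome 4, 101496648 to 101642799, plus strand) encodes auxilin, which brings HSP70 to clathrin coats to strip them from vesicles, mainly in neurons. It had 23 reads in the library labelled Hikeshi cKO, against 86 in the library labelled wild type (1.22 CPM in cKO, 4.56 CPM in wild type), and was 3.75-fold lower (2.35 to 6.23). Its difference was the largest of the kept members, and 1.83% of all kept genes lay lower. Its widely expressed relative Gak, also a J-domain protein, had 1731 (cKO) against 1574 reads (wild type), a ratio of 1.095 (1.02 to 1.17).

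Dnajc5, the cysteine string protein of synaptic and other secretory vesicles, which keeps SNAP25 folded, was lower at a far higher level. It had 3322 reads in the library labelled Hikeshi cKO, against 4267 in the library labelled wild type (176 CPM in cKO, 226 CPM in wild type), a ratio of 0.776 (0.741 to 0.812). Dnajc13, an endosomal protein, went the other way, with 2047 (cKO) against 1625 reads (wild type) and a ratio of 1.255 (1.18 to 1.34). The 3 vesicle and endosome members thus did not share a direction. Of 6 synapse genes, 2 were lower by at least 1.5-fold and 0 higher, against 10.2% and 4.22% of all kept genes, and 3 of the 6 lay above 0. Snap25 had a ratio of 0.577 (0.513 to 0.649). Of 6 neuronal markers, Snap25 and Syt1 again among them, 2 were lower by at least 1.5-fold and 0 higher, against the same shares of all kept genes. They had summed levels of 548 (cKO) against 692 CPM (wild type), and none of the 6 was at 0. The neuroblast gene Dcx had 80 reads (cKO) against 824 (wild type). The part of these genes in the lower Dnajc6 and Dnajc5 was not tested.

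Members of few reads filled most of the rest of the lower side. Per length, Dnajc4 was not among the lowest, at 14.01 (cKO) and 23.65 TPM (wild type). Dnajc4 (Entrez 57431, chromosome 19, 6987911 to 6992591, minus strand) had 111 reads in the library labelled Hikeshi cKO against 182 in the library labelled wild type, and was 1.65-fold lower (1.29 to 2.10). Dnajc28 (Entrez 246738, chromosome 16, 91614257 to 91618999, minus strand) had 71 (cKO) against 112 (wild type) and was 1.58-fold lower (1.17 to 2.16), but under 1.5-fold once 1 CPM was added. Dnajb3, known from testis (Entrez 15504, chromosome 1, 88204732 to 88205748, minus strand), had 31 (cKO) against 58 reads (wild type) and was 1.88-fold lower (1.19 to 3.01). It lies within the Ugt1a genes on the opposite strand, of which Ugt1a6a had 39 (cKO) against 86 reads (wild type), and with the strand setting unknown, reads of either could be counted for the other. The sperm protamine gene Prm1 had 116 reads in the library labelled Hikeshi cKO, against 0 in the library labelled wild type, while the testis genes Dnajb3 and Dnajb13 had 31 and 3 reads (cKO), against 58 and 1 (wild type). Any link between them was not tested. Among the kept members past 1.5-fold, Dnajc4, Dnajc6 and Dnajb3 on the lower side all had at most 182 reads in a library, and the higher Dnaja1 had at least 6526. On the scale with 1 CPM added, Dnajc4 and Dnajb3 were no longer past 1.5-fold with GC content corrected, while Dnajc6 was. The same held with 5 CPM added in place of 1. Without an added value, the GC-corrected ratios of Dnajc4 and Dnajb3 were 0.646 and 0.566, still past 1.5-fold.

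The remaining class C members differed little. Dnajc7, a cytosolic protein that holds clients for HSP70 and HSP90 and was among the 3 most abundant of the class, had 2143 (cKO) against 2208 reads (wild type), a ratio of 0.967 (0.911 to 1.03). Its gene overlaps the oligodendrocyte gene Cnp on the opposite strand, which had 1660 (cKO) against 5590 reads (wild type), so the value of Dnajc7 could hold some of its reads. Dnajc19 likewise overlaps Fxr1, with 2819 (cKO) against 1937 reads (wild type), and Dnajb4, Dnajc1, Dnajc14, Dnajc17 and Dnajc30 overlap other listed genes on the opposite strand in part. Annotated pseudogenes of Dnaja1, Dnajb6 and Dnajc19 could share reads with their parent genes, and how the authors counted such reads is not stated. Dnajc14, which helps receptors leave the endoplasmic reticulum, had 1641 (cKO) against 1481 (wild type), a ratio of 1.104 (1.03 to 1.18). It was not placed in the group listed for that compartment above. Dnajc12, a co-chaperone of aromatic amino acid hydroxylases, had 108 (cKO) against 88 reads (wild type), a ratio of 1.22 (0.914 to 1.64). Its interval held 1. Dnajc24 (a gene of diphthamide synthesis), Dnajc25 and Dnajc27 had ratios between 0.932 and 1.19, each with an interval that held 1.

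Among J-domain genes named outside the pattern, Sec63, the translocon partner of BiP, had 2496 (cKO) against 2403 (wild type; ratio 1.03, 0.978 to 1.09), and Hscb, for iron and sulfur clusters in mitochondria, 141 (cKO) against 158 (wild type; ratio 0.889, 0.703 to 1.12). The 4 symbols Dnajb7, Dnajb8, Dnajc5b and Dnajc5g complete the 45 protein-coding genes of this naming in RefSeq. They were not among the genes of the expression table used, so they could not be analysed.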

How the data were processed

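The labels gave 1 library per genotype, matched to the table's columns by genotype. Per the submitters' processing notes, reads were placed on GRCm38.p6. Aligner, counting tool, annotation and strand setting: not given in the sources used here.

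An estimated count of reads per gene was deposited, 89.8% (cKO) and 90.0% (wild type) of them whole numbers. The authors deposited TPM and FPKM per the file headers, and a normalized signal per the file headers that equalled the rounded-up count times 1.002610 (cKO) or 0.997397 (wild type). Estimated counts were rounded and divided by column totals to CPM. Kept genes reached 1 CPM in 1 library, and 1 CPM was added before log2. Ratios use CPM without it and carry 95% Clopper-Pearson intervals of the reads. Without molecular identifiers reads are not independent molecules, so these cover counting error at most, and the code was tested on simulated data.

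Members and lists were chosen with earlier results of these data known. Described in full were Dnaja1, Dnajb1, kept members at least 1.5-fold apart with 50 reads, and the 3 highest by TPM in each class. Other members were named for their place in the cell. The groups by place came from textbook knowledge and may be incomplete. A planned search for a J-domain tripeptide in the proteins was not run, as protein sequences were not used here. A gene of the lists set beside the family is not reported here. GC content came from GENCODE transcripts (98.7% of kept genes). Python 3.11.15, scipy 1.17.1, edgeR 4.0.16 (TMM) and DESeq2 1.42.0 (size factors) were used; no test was run with either. Alternatives changed the scaling, added value, filter, unit, GC correction and threshold.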

Additional observations from a re-analysis of the deposited data

How the results depend on the processing

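No paired analysis was possible because there was 1 library per genotype, and for the same reason no library could be left out. The count of members at least 1.5-fold higher in the library labelled Hikeshi cKO was 1, and it was 2 with TMM scaling (Dnaja1 and Dnajb1) and 0 with 5 CPM added. With GC content corrected it was again 1, but Dnajb1 in place of Dnaja1, whose ratio was then 1.38. The count at least 1.5-fold lower was 3, and it was 4 with 0.25 CPM added (Dnajc28 joining), 1 with 5 CPM added (Dnajc6), 1 with a filter of 5 CPM (Dnajc4) and 1 with GC content corrected (Dnajc6). A log2 threshold of 0.32 gave 4 higher and 6 lower, and 2-fold gave 0 and 1. The ratio of the summed reads was 1.09, against 1.11 with TMM scaling and 1.01 without Dnaja1 and Dnajb1, an alternative chosen after seeing the data. The cause of these shifts was not tested. The medians of the family and of each class kept their signs under all alternatives run, with ranges of 0.02 to 0.05 (family; 0.01 without Dnaja1 and Dnajb1), -0.13 to -0.09 (class A), 0.06 to 0.15 (class B) and 0.03 to 0.05 (class C). The median of all kept genes was -0.02, and 0.01 with TMM scaling. Of 65 values for the members described in full, 64 stayed within their counting interval, and that of Dnaja1 with GC content corrected did not. Other members were not part of this count, among them Dnajb14, whose ratio by deposited TPM lay above its counting interval. TMM scaling, DESeq2 size factors and the deposited normalized signal each moved all ratios by nearly the same small factor. Staying within the interval under those settings therefore says little. Depth limits members of few reads, such as Dnajc6, with 23 reads (cKO) against 86 (wild type).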
